A study of Solanum tuberosum with 22 samples.

Results

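VPE2 (also listed as VPE1), a vacuolar processing enzyme gene of potato (Solanum tuberosum), was represented by 4 of the 32448 spots of a 2-colour array, 2 spots of each of 2 cDNA clones. The spots were found by their platform annotation, and the gene was selected on measured values, its opposite courses in culture and on the plant with the in vivo direction described below. Its levels over culture time, in stolons and over tuber size are therefore given as a description with no test. In spots 142359 and 143203 of clone 1, VPE2 was higher at later culture times by 1.23 ± 0.04 on the log2 scale (SD, n = 2 replicates), a 2.35-fold difference. In the same 2 spots, tubers of 16-35 mm were lower than tubers of 1-10 mm by 3.77 ± 1.53 on the log2 scale (SD, n = 2 replicates), a 13.6-fold difference. That second direction is only likely, and with the signs turned the large tubers are the higher ones. Spots 144948 and 146807 of clone 2 differed little over culture time and were nearly empty in vivo.

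Vacuolar processing enzymes, or legumains, are cysteine proteases of the vacuole that cut proteins after asparagine and, less often, aspartate. They mature vacuolar proteins from their precursors, among them seed storage proteins, and they take part in the vacuole-driven cell death of plants. The vacuole of tuber cells stores patatin together with inhibitors of serine, cysteine and aspartic proteases. In potato tubers, vacuolar processing enzyme activity is known from the death of the apical bud meristem during sprouting.

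Groups were microtubers grown in vitro for 2 days, 5 days, 10 days, 20 days or 30 days after tuber induction, and in vivo stolons, the underground shoots on which tubers form, and tubers of 1-5, 6-10, 11-15, 16-25 and 26-35 mm. Each group had 2 replicates, so 10 arrays were in vitro and 12 in vivo. The labels name no cultivar, mutation or other treatment. Microtubers grew in the dark on a hormone-free medium with 8% sucrose, and the same text stands beside the growth chamber samples, whose replicates were separate sets of 10 plants grown one after the other. Every array set a sample against RNA pooled over all stages of its own system, so a log2 ratio of 0 is the level of that pool and levels cannot be set across the systems. Stolon RNA was amplified before labelling and the other RNA was not. Depth has no meaning on arrays, and precision is limited by the number of arrays. In vitro arrays held values for 52.0% to 65.7% of spots and in vivo arrays for 33.1% to 48.9%. No in vitro array held a value for any of the 6 patatin spots, while in vivo 1 patatin spot could be tested. Of all spots, 32.3% had no in vitro value and the spot filters are unknown, so missing values do not check the tissue. In whole tissue, fewer cells that express VPE2 and less VPE2 RNA per cell cannot be told apart.

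In culture, spot 142359 had log2 ratios at 2 days of -0.81 in replicate 1 and -0.86 in replicate 2, followed by -0.29 and -0.32 on day 5, 0.11 and 0.08 on day 10, 0.90 and 0.79 on day 20, and 0.73 and 0.56 on day 30. Spot 143203, of the same clone, had -0.67 and -0.79 on day 2, -0.29 and -0.40 on day 5, 0.16 and 0.31 on day 10, 0.76 and 0.60 on day 20, and 0.60 and 0.50 on day 30. Every value at 20 and 30 days lay above every value at 10 days, and every value at 10 days above those at 5 and 2 days. Both spots of the clone differed by at most 0.23 on any in vitro array.

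As means of both spots, the step of clone 1 to 5 days, against 2 days, was 0.45 in replicate 1 and 0.47 in replicate 2. The step to 10 days, against 5 days, was 0.42 and 0.56, and the step to 20 days, against 10 days, was 0.69 and 0.50. At 30 days, against 20 days, the differences were -0.16 and -0.17. The increase was thus spread over the first 20 days, and the 30-day value was slightly lower in both spots of both replicates. In order of level the clone stood at 0.76 ± 0.09 on day 20, 0.60 ± 0.10 on day 30, 0.17 ± 0.04 on day 10, -0.32 ± 0.05 on day 5 and -0.78 ± 0.06 on day 2 (SD, n = 2). The single-spot values at 20 and 30 days overlapped, while the other neighbours in this order did not.

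**Figure D1:**
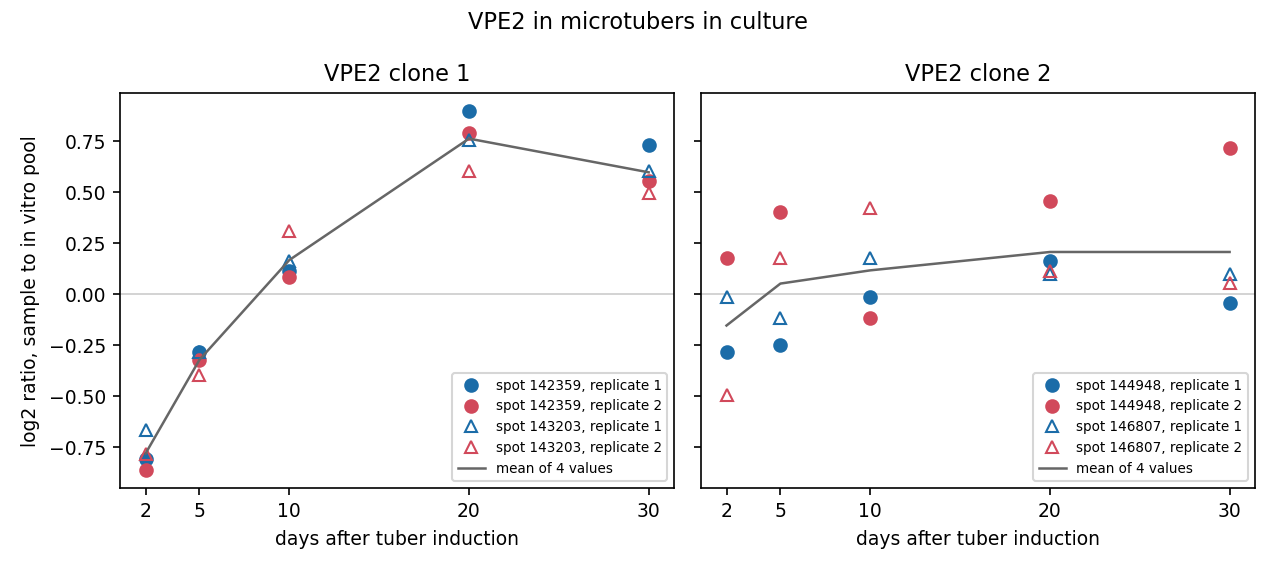
Log2 ratio of sample to the in vitro pool (y axis) against days after tuber induction (x axis) for the 2 spots of VPE2 clone 1 (left) and clone 2 (right); colours are replicates, filled circles and open triangles are spots, and the line joins the means of the 4 values. Clone 1 runs between means of -0.78 at 2 days and 0.76 at 20 days, whereas the means of clone 2 stay between -0.15 and 0.21.

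Clone 2 gave another picture. Spot 144948 had log2 ratios of -0.29 and 0.18 on day 2, -0.25 and 0.40 on day 5, -0.01 and -0.12 on day 10, 0.16 and 0.45 on day 20, and -0.04 and 0.71 on day 30. Spot 146807 had -0.01 and -0.49 on day 2, -0.12 and 0.18 on day 5, 0.18 and 0.42 on day 10, 0.10 and 0.11 on day 20, and 0.10 and 0.06 on day 30. The replicates of a day overlapped those of most other days. The 2 spots of clone 2 did not share a course over the 10 in vitro arrays (Pearson r = 0.009), while those of clone 1 did (r = 0.985). Their median difference was 0.25 and the largest 0.67, against 0.10 and 0.23 for clone 1. Clone 2 therefore gave no course from day to day that both of its spots bear out. At 20 and 30 days, against 2 and 5 days, both spots were slightly higher in both replicates. The differences were 0.33 and 0.30 for spot 144948 and 0.16 and 0.24 for spot 146807.

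Late times, 20 and 30 days, minus early times, 2 and 5 days, gave 1.31 for spot 142359 and 1.15 for spot 143203, against 0.31 for spot 144948 and 0.20 for spot 146807. The gene was selected on this course too, so its ranks only describe it. All 4 spots lay above the median of all 19600 spots tested, 0.016. Counted from the highest, the spots of clone 1 held ranks 545 and 696 and those of clone 2 ranks 4877 and 6592. The mean over the 4 spots, 0.74, hides this difference between clones. Clones of VPE2 differed by 0.97 in this change, rank 5 from the largest among 99 genes with 2 clones tested, whose median difference was 0.13. Duplicate spots of 1 clone differed by a median of 0.059 over 662 clones. Whether both clones detect the same transcript was not tested.

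The in vivo values need their direction first. Sample RNA carried Cy3 in replicate 1 and Cy5 in replicate 2, and replicates of a stage correlated between -0.63 and -0.36 across spots as deposited. The sign of replicate 2 was turned. On the in vitro arrays the sample carried Cy5, and their values were read as sample over pool. Were every ratio Cy5 over Cy3, replicate 1 in vivo would have to be turned instead. With that choice every in vivo difference below keeps its size and changes its sign, and VPE2 would be higher in large tubers, as it was at late culture times. The choice made here is only likely. It rests on patatin and on the tails of all spots. Of patatin, 1 of 6 spots could be tested, at 7.17 for tubers minus stolons with replicate 2 turned. In the tails, 413 values of replicate 1 and 46 of replicate 2 lay above the bound given next, and 2070 and 1781 below its negative. Some values thus exceed the bound in the direction used too. Among spots with a value in all 6 stages, 50.8% (replicate 1) and 51.9% (replicate 2) had linear ratios averaging closer to 1 in that direction, near an even split.

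VPE2 itself can be set against the pool. If all 6 stages made up equal parts of the pool, the linear ratios of the stages to the pool would average 1, and no log2 ratio could exceed 2.58. With replicate 2 turned, the clone 1 ratios averaged 0.855 in replicate 1 and 0.521 in replicate 2, with highest log2 ratios of 1.39 and 0.47. With replicate 1 turned instead, they averaged 2.61 and 16.8, and the log2 ratios of replicate 2 reached 5.23. In vitro, where 5 stages made up the pool, the averages were 1.18 and 1.11 in replicates 1 and 2. The labels do not say in which amounts RNA was pooled, and these averages come from the same values as the course itself.

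On the plant, spot 142359 had, with replicate 2 turned, log2 ratios of -0.04 and 0.41 in stolons, 1.53 and 0 in 1-5 mm tubers, -0.29 and -0.52 in 6-10 mm tubers, -2.06 and -4.75 in 11-15 mm tubers, -2.06 and -5.21 in 16-25 mm tubers, and -2.40 and -5.15 in 26-35 mm tubers. Spot 143203 had -0.07 and 0.53 in stolons, 1.25 and -0.07 in 1-5 mm tubers, -0.18 and -0.64 in 6-10 mm tubers, -2.18 and -4.69 in 11-15 mm tubers, -1.74 and -4.93 in 16-25 mm tubers, and -2.25 and -5.32 in 26-35 mm tubers. In both spots and both replicates the classes of 11 mm and more lay below the classes of 10 mm and less and below the stolons, with no overlap. No value lay at the lowest deposited ratio of 0.01. The values of replicate 2 from 11 mm on were deposited as high ratios, so that limit could not show in them. Both spots agreed within 0.32 on every in vivo array.

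The values parted between the classes of 1-5 and 11-15 mm. For clone 1, 11-15 mm tubers minus 6-10 mm tubers gave -1.89 in replicate 1 and -4.14 in replicate 2, which are 3.70-fold and 17.6-fold differences. The step before it, 6-10 mm minus 1-5 mm, was -1.63 and -0.54. For spot 142359 in replicate 1 this earlier step, -1.82, was slightly larger than the later one, -1.77. The steps among the 3 largest classes were small, 0.22 and -0.35 for 16-25 mm minus 11-15 mm, and -0.43 and -0.16 for 26-35 mm minus 16-25 mm. With the in vivo direction turned, these are steps of the same size upward, at the same tuber sizes.

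**Figure D2:**
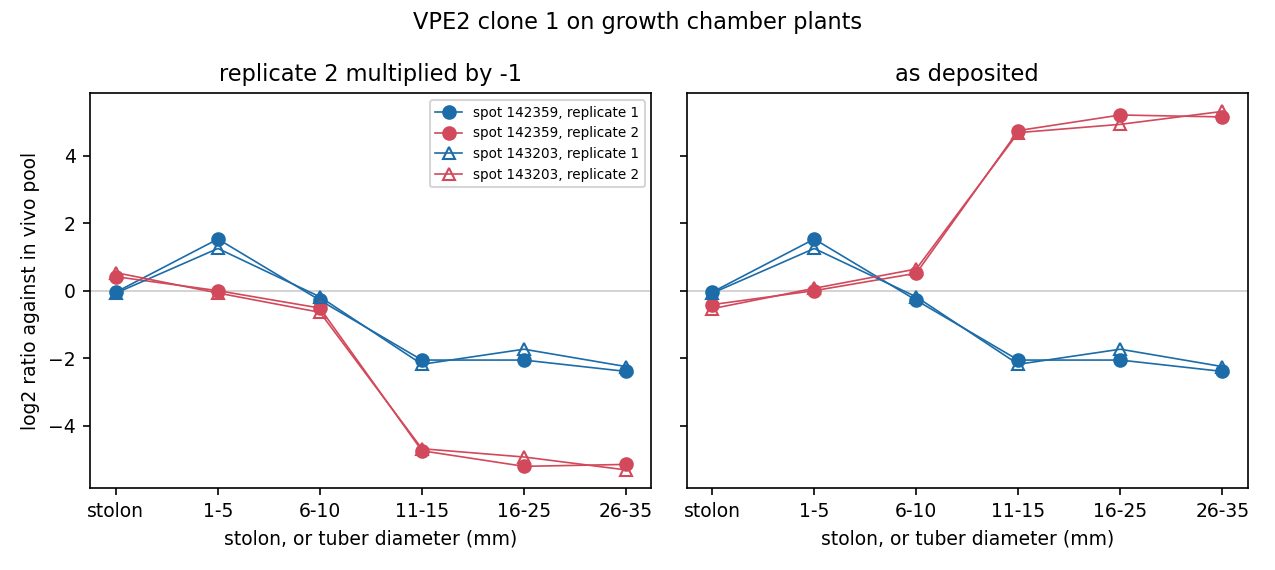
Log2 ratio against the in vivo pool (y axis) for the 2 spots of VPE2 clone 1 in stolons and 5 tuber size classes in mm (x axis), with replicate 2 multiplied by -1 (left) and as deposited (right); colours are replicates and markers are spots. As deposited, the replicates have opposite signs from 6-10 mm on, but not in stolons or 1-5 mm tubers, and from 11-15 mm on replicate 2 lies further from 0. Both change most between the classes of 1-5 mm and 11-15 mm.

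Over the 7823 spots with a value on all 10 tuber arrays, the step between 6-10 and 11-15 mm had an SD of 0.44 in replicate 1 and 0.43 in replicate 2. The gene was selected on its course over tuber size, of which this step is a part, so its ranks here only describe it. In the mean step of both replicates, spot 143203 held rank 1 and spot 142359 rank 2 from the lowest. By size within a replicate, spot 143203 held rank 19 in replicate 1 and rank 2 in replicate 2, and spot 142359 rank 29 and rank 1, so both stood nearer to the extreme in replicate 2. The step was 2-fold or more the same way in both replicates in 53 spots, 0.677% of them. This step was the largest of the 4 tuber steps in both replicates for 9.88% of spots, among which was spot 143203 and not spot 142359.

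**Figure D3:**
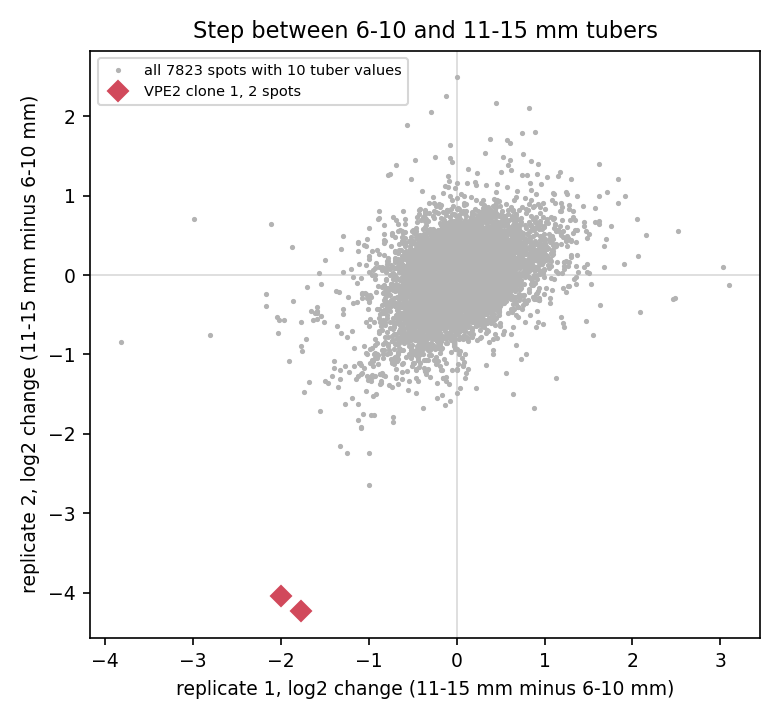
Log2 change of 11-15 mm minus 6-10 mm tubers in replicate 1 (x axis) and replicate 2 (y axis) for 7823 spots in grey, with the 2 VPE2 spots of clone 1 as red diamonds. The VPE2 spots lie below the grey points, at -1.77 and -2.00 in replicate 1 and -4.23 and -4.05 in replicate 2. The gene was selected on its course over tuber size, so this position is a description.

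In order of level, clone 1 stood at 0.68 ± 1.01 in 1-5 mm tubers, 0.21 ± 0.38 in stolons, -0.41 ± 0.24 in 6-10 mm tubers, -3.42 ± 1.84 in 11-15 mm tubers, -3.48 ± 2.24 in 16-25 mm tubers and -3.78 ± 2.06 in 26-35 mm tubers (SD, n = 2). The 1-5 mm tubers and the stolons overlapped, and so did the 3 largest classes. The 6-10 mm tubers lay below the 1-5 mm tubers and stolons and above the large classes. The spread came from a gap between the replicates. Replicate 1 exceeded replicate 2 by 1.43, 0.34, 2.60, 3.17 and 2.91 in the 5 tuber classes by size and was 0.53 below it in stolons. This matched the other spots, whose replicate gaps correlated between 0.85 and 0.93 among tuber classes and between -0.47 and -0.37 between stolons and tubers. Replicate, plant set and dye are the same split here and cannot be told apart.

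Large tubers, 16-25 and 26-35 mm, minus small tubers, 1-5 and 6-10 mm, gave -2.69 in replicate 1 and -4.85 in replicate 2 for clone 1. Spots 142359 and 143203 held ranks 3 and 5 from the lowest of 10597 spots in this difference, on which the gene was selected. Culture time and tuber size thus ran in opposite directions for clone 1, 1.23 against -3.77, in each of the 4 replicates with replicate 2 in vivo turned. With the other in vivo direction the values were 1.23 and 3.77, and both were positive. Clone 2 could not be followed on the plant. Spot 146807 had no in vivo value and spot 144948 had 1, a log2 ratio of 0.45 in the stolons of replicate 2. Among spots with a value on every in vitro array, 10.7% had at most 1 in vivo value.

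The comparison of tubers with stolons draws on the same in vivo values by which the gene was selected, so it too is a description with no test. Clone 1 averaged -2.08 over the 5 tuber classes and 0.21 in stolons, a difference of -2.29 ± 1.85 (SD, n = 2 replicates). The difference was -0.98 in replicate 1 and -3.60 in replicate 2, so its size differed widely between the replicates. Spots 142359 and 143203 held ranks 260 and 254 from the lowest of 10415 spots. The low values of the classes from 11 mm on carried this mean, since the 1-5 mm and 6-10 mm tubers stood at 0.68 and -0.41. The amplification of stolon RNA cannot be told apart from the tissue. For 1-5 mm tubers minus stolons, clone 1 gave 1.45 in replicate 1 and -0.51 in replicate 2, so the replicates disagreed in sign.

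Inhibitors and other proteins of the vacuole and of proteolysis formed a list of 6 other genes with 38 spots. In culture 14 of these spots could be tested. PIN-II, a wound-induced inhibitor of serine proteases, fell on 6 of its 8 spots at late against early times, with log2 changes of -2.57 to -2.00 (adjusted p from 1.10e-04 to 4.92e-04 by limma). Its other 2 spots differed by 0.11 and 0.17 without passing. LAP, a leucine aminopeptidase, fell on 5 of 6 spots, with log2 changes of -0.41 to -0.36, and the sixth differed by -0.30 (adjusted p = 0.0533 by limma, and 0.0318 with the replicate block). In all 11 of 14 spots were lower and 0 higher, where 24.3% of all spots were lower and 4749 of all 19600 were higher. The median over the 14 spots was -0.40, and clone 1 of VPE2 lay on the other side of 0. The Kunitz-type protease inhibitor KTI-C, the aspartic protease inhibitor API and patatin had too few in vitro values for a test, as had the second PIN-II locus, PIN2K, in both systems.

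As means of the 4 PIN-II spots with every in vitro value, replicates 1 and 2 stood at -1.09 and 0.63 on day 2, 0.87 and 0.60 on day 5, 0.59 and -0.06 on day 10, -1.66 and -1.79 on day 20, and -1.93 and -2.17 on day 30. The replicates differed most at 2 days and were alike from 20 days on. PIN-II was thus lowest at the times at which clone 1 of VPE2 was highest.

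In vivo, 20 of the 38 spots could be tested, and 11 were higher and 1 lower in tubers than in stolons by limma, where 14.3% of all spots were higher and 8.06% lower. With the replicate block 11 were higher and 2 lower, where 2266 of all 10415 spots were higher and 17.9% were lower. Without the stolon array of replicate 2 the spots called were 6. KTI-C was higher on 5 of 5 spots by 7.24 to 8.48 (adjusted p at most 0.00131 by limma) and API on 2 of 2 by 5.58 and 5.60 (adjusted p = 0.00766 and 0.0110 by limma). PIN-II passed on 3 of 6 spots and patatin on 1 of 1, while 1 of 6 LAP spots was lower. Since patatin helped to set the in vivo direction, these signs are not independent of it. KTI-C stood at -6.64 in the stolons of replicate 1, the lowest deposited value, so its difference is limited there. API stood at -3.27 in the stolons of replicate 1 and at -8.14 in those of replicate 2. Replicate deviations correlated between 0.85 and 0.93 among tuber classes and between -0.47 and -0.37 with stolons. Neither fit allows for stolons deviating against tubers, so the p-values for tubers minus stolons can understate the spread between replicates.

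Between tubers of different size, 0 of 20 list spots passed in the fit without a block, in which 0 of 10597 spots (0%) passed and 679 had an unadjusted p under 0.05 by limma. With the replicate block, 13 list spots were higher and 1 lower in large tubers, where 9.05% of all spots were higher and 10.5% lower. API differed by 4.23 and 4.43 (adjusted p = 0.139 for both by limma, and 5.24e-05 and 3.63e-05 with the block). KTI-C differed by 2.34 to 2.89 on its 5 spots and PIN-II by 0.44 to 1.89 on its 6. LAP differed by -0.44 to -0.12. Clone 1 of VPE2, at -3.89 and -3.65, thus had the opposite sign to the inhibitors, whichever in vivo direction is taken.

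As means of its 2 spots, API had values of -0.39 and -1.19 in 6-10 mm tubers, 0.86 and 0.06 in 11-15 mm tubers and 2.77 and 2.06 in 26-35 mm tubers in replicates 1 and 2. KTI-C, over 4 spots, had 0.58 and -0.23, 1.71 and -0.05, and 3.09 and 1.21 in the same 3 classes. Unlike VPE2, whose levels were flat from 11-15 mm on, both inhibitors were higher in each larger of these classes, except that KTI-C of replicate 2 differed little between 6-10 and 11-15 mm.

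Among named genes, likeness to VPE2 was taken as Pearson r of the mean over a gene's complete spots with that of VPE2 (4 spots in vitro, 2 in vivo) over arrays, apart in each system. Turning the in vivo direction changes none of these values. In vitro, over 10 arrays and 170 genes, the most alike were the S-adenosylmethionine synthase METK1 (r = 0.961), the lipoxygenase POTLX-3 (r = 0.960), the phospholipase C plc3 (r = 0.954) and the chaperone transcript dnaJ (r = 0.949), where the median gene had r = -0.362. In vivo, over 12 arrays and 135 genes, they were the symbol cyp (r = 0.962), the UDP-glucose epimerase STUGE51 (r = 0.942), a locus listed as gln (r = 0.900) and met3-2 (r = 0.883), where the median was -0.065. The arrays of a system share a pool, and in vivo they share the gap between replicates.

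The gene cyp had r = 0.984 in replicate 1 and 0.974 in replicate 2 in vivo, over 6 arrays each, but r = 0.226 in vitro. It differed by -0.79 and -1.57 between large and small tubers, less than VPE2, and by -0.02 between late and early culture times. STUGE51, with 1 spot, differed by -1.75 and -2.56 between large and small tubers and had r = 0.383 in vitro.

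Over both systems, with likeness taken as the lower of the 2 r values among 126 genes, METK1 came first, with 0.961 in vitro and 0.828 in vivo. It differed by 1.61 over culture time and by -0.53 and -0.93 between large and small tubers in replicates 1 and 2. The translation factor eIF-5A-5 followed (r = 0.932 and 0.809), then the MYB-related factor StMYB1R-1 (r = 0.941 and 0.795) and the photosystem II transcript PSBR (r = 0.766 and 0.841), each with the in vitro value first. StMYB1R-1 differed by 1.10 over culture time and by -1.32 and -1.24 between large and small tubers. For eIF-5A-5 the differences were 1.06 over culture time and -0.40 and -0.91 between large and small tubers. For PSBR they were 0.66, and -1.23 and -1.08. Tubers of 11-15 mm minus 6-10 mm gave -0.86 and -1.06 for METK1 and -0.47 and -1.19 for eIF-5A-5. The same step was -0.92 and -1.10 for StMYB1R-1 and -1.11 and -1.22 for PSBR. Each of these genes thus also had changes with opposite signs in the 2 systems, under the direction used here. All were picked for likeness to VPE2 in both systems, so this follows largely from the choice. How many genes share it was not counted.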

How the data were processed

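Transcripts of 22 samples were measured on 2-colour arrays. The deposited values are log2 ratios of sample and pooled reference, per the labels and the values. Limma is named, without a version, per the submitters' processing notes. Background correction, centring, spot filters and channel order are given in none of the sources used here. Array medians lay between -0.058 and 0.029, and values were used as deposited, with in vivo replicate 2 multiplied by -1.

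Spot names came from the platform annotation, whose 430 genes were all found (430 of 430) among the RefSeq genes of SolTub_3.0. A first synonym shared by several loci was replaced by the second. Sequences and genome positions are not used here. Each contrast was fitted over all spots measured on 80% or more of its arrays, and on 1 or more per group, with limma 3.58.1 in R 4.3.3, and p-values were Benjamini-Hochberg adjusted over all of them. Large against small tubers was fitted without the stolon arrays. The fits were also run on simulated data with independent noise on each array. That noise lacked the replicate deviations shared among tuber arrays, so the run does not check the in vivo fits without a block. Named genes were all VPE2 spots, the list of protease and inhibitor genes with tested spots, and the 4 genes most like VPE2 by Pearson r in each system and in both. VPE2 and the list were chosen with earlier results of these data known. A test of VPE2 between tubers and stolons was planned, but its p-values are not given, because the choice of the gene used the in vivo values of all classes.

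Per the labels, an in vivo replicate number stands for 1 of the sets of plants, which were grown one after the other, so the numbers pair the samples. Deviations correlated between 0.85 and 0.93 among tuber classes and were below 0 with stolons. In vitro they correlated over 0.1 in 4 of 10 pairs of days. Alternatives were the replicate block, median-centred arrays, quantile normalization, 2 other filters (every array and 50% of arrays), array weights, the turned in vivo direction, the median over spots and each array left out.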

Additional observations from a re-analysis of the deposited data

Results flagged for a closer look

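The change of VPE2 clone 1 over culture time (20 and 30 days minus 2 and 5 days) exceeded its change over tuber size (16-35 mm minus 1-10 mm) by 5.00 on the log2 scale, because both in vitro replicates were higher late and both in vivo replicates lower in large tubers. The gene was selected on this opposition and the difference was not tested. With the other in vivo direction the difference was -2.54 and both changes were positive.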

How the results depend on the processing

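Turning the in vivo direction gave 2.29 for tubers minus stolon and 3.77 for large minus small tubers as means of the VPE2 spots, both with the sign changed. Tubers minus stolon, -2.29 for VPE2, was -2.36 with quantile normalization, and -2.61 to -1.97 without single arrays. The replicate block and array weights cannot move it, since each group had 2 arrays and these spots had every value. The late minus early mean of 4 spots, 0.74, was 0.69 with quantile normalization, 0.73 as the median over spots and 0.69 to 0.79 without single arrays, small moves that exceed a replicate SD of 0.012. Large minus small tubers ranged from -4.56 to -2.97 without single arrays and was -3.34 with quantile normalization. The list spots called for tubers minus stolon numbered 12, 6 without the stolon array of replicate 2, and 6 to 13 over all single arrays left out. For large against small tubers they numbered 0, and 14 with the replicate block. Over all spots the block gave 4126 calls in place of 2324 for tubers minus stolon and 2075 in place of 0 for large minus small, quantile normalization gave 3788 and 0, and array weights 4070 and 0. Without a stolon array the tubers minus stolon calls were 1180 (replicate 1) and 366 (replicate 2). Beside these, the block changed the call of 1 LAP spot in culture and of 1 LAP spot for tubers minus stolon, and no other call named here. Signal over background is unknown, so the lowest ratios may be less precise.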
